A study of Mus musculus with 25 samples.

Results

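The hairpins mmu-mir-322, mmu-mir-503, mmu-mir-351 and mmu-mir-542 lie side by side on the mouse X chromosome, and their mature microRNAs are best known for holding back cell division. They were chosen by name, as 4 of the 1193 microRNA precursors (hairpins) counted in mouse blood, and no threshold on a value was applied. The choice was made with earlier results of these libraries known, so the tests below describe these libraries and are not independent of that choice. All 4 passed the filter on low counts, which left out 855 of the 1193 and kept the rest for testing.

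The libraries came from blood of mice of the inbred laboratory strain C57BL/6, all male, at 2, 9, 15, 24 and 30 months, from young adulthood to old age. No allele or agent is named for any group, and all 5 ages share strain, sex and tissue. Each age had 5 libraries from separately numbered animals, 25 in all, so n is 5 for every age. The question was how the blood levels of these microRNAs differ with age.

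A microRNA gene is transcribed as a longer RNA, cut to a hairpin and then to a short duplex, and 1 strand of that duplex guides silencing proteins to messenger RNAs that pair with its seed, the bases near its 5′ end. Members of the group are known to repress regulators of the step from G1 to S phase. miR-322 (the mouse counterpart of human miR-424) and miR-503 lower Cdc25a and D-type cyclins, miR-351 shares the seed of the miR-125 family, and miR-542-3p is known for repressing survivin, a protein of dividing cells. In muscle the miR-322 and miR-503 pair is induced as myoblasts leave the cell cycle. Blood RNA is dominated by red cells and their precursors, where microRNAs such as miR-451 and the miR-15/16 family abound. The counts measure hairpins, not targets, so nothing on cell division was measured here.

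The mature sequences show which members could share targets. RefSeq (GRCm38.p6) held both arms of all 4 hairpins, 8 mature sequences in all. They are written 5′ to 3′, and the capitals mark the seed, bases 2 to 8.
miR-322-5p: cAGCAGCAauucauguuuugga
miR-503-5p: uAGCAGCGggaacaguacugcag
miR-16-5p: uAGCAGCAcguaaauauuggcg
miR-351-5p: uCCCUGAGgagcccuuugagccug
miR-125a-5p: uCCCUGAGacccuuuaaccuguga
miR-125b-5p: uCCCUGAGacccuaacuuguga
miR-542-3p: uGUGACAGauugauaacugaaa

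The seed of miR-322-5p was shared with 9 others of 1679 mature mouse sequences, among them miR-15a-5p, miR-15b-5p, miR-16-5p, miR-195a-5p and miR-497a-5p. That of miR-503-5p matched no other mature sequence over bases 2 to 8. Over bases 2 to 7 it matched 10, miR-322-5p included. The seed of miR-351-5p was shared with 4 others, including miR-125a-5p and miR-125b-5p, and that of miR-542-3p with 0. Sequences were also compared position by position from the 5′ end, seed included and without gaps. miR-322-5p had the same base as miR-16-5p at 12 of 22 positions, with a longest shared run of 7. miR-351-5p had the same base as miR-125a-5p at 10 of 24, with a longest shared run of 8. Bases shared at an offset are missed, so likeness past the seed was not measured.

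Each deposited count is for a hairpin as a whole. Its other arm could therefore contribute: miR-322-3p, miR-503-3p, miR-351-3p and miR-542-5p. Of these, only miR-542-5p shared its seed with another mature sequence, miR-6966-5p. RefSeq held 3 of the hairpins, shown here with both arms in capitals to show what a count can contain.
Mir322: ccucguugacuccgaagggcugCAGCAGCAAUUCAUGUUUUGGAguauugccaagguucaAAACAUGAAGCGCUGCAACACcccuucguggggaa
Mir503: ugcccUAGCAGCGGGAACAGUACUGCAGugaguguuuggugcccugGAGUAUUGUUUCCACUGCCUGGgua
Mir542: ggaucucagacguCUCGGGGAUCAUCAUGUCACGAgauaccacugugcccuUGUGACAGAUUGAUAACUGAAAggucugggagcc
The hairpin of mir-351 is named only.

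On GRCm38.p6 all 4 hairpins lie on the minus strand of chromosome X within 4947 bp. In the direction of the strand mir-322 comes first, at chrX:53054255-53054349. It is followed after 200 bp by mir-503 (chrX:53053984-53054054), after a further 630 bp by mir-351 (chrX:53053255-53053353) and after 3767 bp by mir-542 (chrX:53049403-53049487). GENCODE M21 gave the same coordinates. The RefSeq entry for the long noncoding RNA C430049B03Rik (chrX:53053112-53057190) spans mir-322, mir-503 and mir-351 but not mir-542. The GENCODE entry of that name (chrX:53055046-53057190) spans none of them, and the table used here gives no exons for the RefSeq entry. A further 3 hairpins, mir-450a-2, mir-450a-1 and mir-450b, continue the group on the same strand, starting 1035 bp past mir-542. The coordinates are those of the assembly named, which may differ from the build behind the counts.

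Library totals ran from 4.884 to 24.25 M (mega) counts around a median of 15.39 M. Levels are given in CPM (counts relative to library size, with sizes scaled by trimmed means of M-values). The floor, taken as 3 counts, was 0.614 counts per M of the unscaled total in the shallowest library. In the deepest it was as little as 0.124 on that unscaled basis. The tissue label fitted its markers: all 8 listed red cell precursors were detected, with summed levels of 569500 to 844100 CPM at 30 months and 780100 to 931000 CPM at 2 months. Much of that sum was mir-486a and mir-486b, which averaged 296100 and 295900 CPM over the 25 libraries. Whether the same reads were counted for both is not known, so the sum may be too high. The 2 libraries of fewest counts were 24 months replicate 4 (4.884 M) and 30 months replicate 3 (5.747 M), and they stood apart for some members, so values are given with and without them. Libraries were spread unevenly over 6 sequencing lanes, and the index sequence follows age too closely for an effect of index and of age to be told apart. In bulk blood, fewer cells of a type and less RNA per cell cannot be told apart.

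The group was moderately abundant and very uneven. Averaged over the 25 libraries, mir-351 had 54.2 CPM and ranked 107 of 1193, mir-322 had 38.6 CPM and ranked 117, mir-542 had 2.44 CPM and ranked 213, and mir-503 had 0.584 CPM and ranked 314. A read is a whole mature strand, so these levels were not divided by hairpin length. Of the summed counts of the 4, mir-351 took 54.8% ± 12.5 in 30-month libraries and 56.7% ± 7.93 in 2-month libraries (SD, n = 5 each). The share of mir-322 was 42.1% ± 11.9 at 30 months and 39.9% ± 7.67 at 2 months. mir-542 took 2.54% ± 0.794 and 2.76% ± 0.456 at those ages, and mir-503 0.587% ± 0.288 and 0.686% ± 0.188. At all 5 ages mir-351 had the highest mean share and mir-503 the lowest.

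Over the 25 libraries mir-322 and mir-351 rose with age. mir-542 passed the trend test narrowly (edgeR adjusted p = 0.0499) and lost its call in 13 of 34 alternatives. mir-503 had a positive slope that did not pass the test. Without the 2-month libraries no slope was called. In the linear trend over months, 3 of the 4 were called higher at an adjusted p under 0.05. Of all precursors tested, 10.7% were called higher in that trend and 9.17% lower. At 24 and at 30 months against 2 months, 1 of the 4 was called. The slopes below are in log2 units per 10 months, and every adjusted p of a precursor comes from edgeR's quasi-likelihood F test with Benjamini-Hochberg adjustment over all precursors tested.

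mir-322 is the first hairpin of the group and carries the miR-15/16 seed. It had 28.1, 19.3, 27.9, 36.6 and 29.7 CPM at 2 months, 33.3, 34.8, 28.7, 28.9 and 28.5 CPM at 9 months, and 25.5, 37.1, 30.4, 27.6 and 26.5 CPM at 15 months. At 24 months its levels were 42.7, 28.4, 42.9, 111.8 and 37.4 CPM, and at 30 months 41.8, 33.4, 94.7, 32.3 and 57.6 CPM. Levels up to 15 months lay within 1 band, and each age from 24 months held 1 library far above the rest while its lower libraries overlapped with those of the young mice. The means ran 28.3 ± 6.17, 30.9 ± 2.95, 29.4 ± 4.68, 52.7 ± 33.6 and 52.0 ± 25.9 CPM from 2 to 30 months (SD, n = 5 each). All 5 libraries at 24 months and all 5 at 30 months lay above the 2-month mean, the lowest of them only just (28.4 against 28.3 CPM). So did all 5 at 9 months, and 2 of 5 at 15 months, so this count does not set the late ages apart. The slope was 0.36 (SE 0.09, edgeR adjusted p = 0.00718).

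The high libraries of mir-322 at both ages were those of fewest counts. 24 months replicate 4 had the highest level of the 25 libraries and 30 months replicate 3 the next highest, while the other 4 libraries of each age averaged 37.9 ± 6.83 CPM at 24 months and 41.3 ± 11.7 CPM at 30 months. Without both libraries, an alternative chosen after seeing the data, the slope was 0.21 (edgeR adjusted p = 0.00674), smaller but still called. The part of depth in these levels was not tested.

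mir-351, which carries the miR-125 seed, was the most abundant member and had the tightest groups at the oldest ages. It had 44.4, 46.5, 37.2, 35.1 and 36.5 CPM at 2 months, 42.2, 50.7, 59.9, 57.3 and 59.5 CPM at 9 months, and 40.0, 40.8, 22.4, 45.4 and 73.3 CPM at 15 months. At 24 months it had 74.2, 67.8, 60.9, 85.3 and 61.2 CPM, and at 30 months 49.8, 70.7, 55.4, 66.4 and 73.4 CPM. Every library of 24 and of 30 months lay above every library of 2 months, while the 15-month libraries ran from below the lowest library of the other ages to near their highest. The means were 40.0 ± 5.13, 53.9 ± 7.52, 44.4 ± 18.4, 69.9 ± 10.2 and 63.1 ± 10.1 CPM from 2 to 30 months (SD, n = 5 each). The slope was 0.25 (SE 0.07, edgeR adjusted p = 0.0127), and 0.26 (adjusted p = 0.00992) without the libraries of fewest counts.

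mir-542 lies apart from the other members, downstream of them. It had 1.96, 1.91, 1.40, 2.47 and 2.06 CPM at 2 months, 1.88, 2.12, 2.51, 2.26 and 1.40 CPM at 9 months, and 2.32, 2.86, 2.44, 2.05 and 1.78 CPM at 15 months. At 24 months it had 2.28, 1.68, 2.60, 5.45 and 2.48 CPM, and at 30 months 2.93, 1.29, 4.68, 3.10 and 3.18 CPM. The ages overlapped throughout, the lowest library of all being a 30-month one, and the highest values were again those of 24 months replicate 4 and 30 months replicate 3. Its slope of 0.23 (SE 0.08) passed the test by a narrow margin (edgeR adjusted p = 0.0499). Without the libraries of fewest counts it was 0.15 and not called (adjusted p = 0.137), and leaving out either one alone also ended the call (adjusted p = 0.0636 without the 24-month library and 0.0923 without the 30-month one). The call was also lost without 2 months replicates 1 or 3 or 30 months replicates 1, 4 or 5, with adjusted p between 0.0528 and 0.0696, and was kept in 18 of the 25 fits that leave out 1 library. On the log2 of age in place of age, mir-542 was not called (0.14 per doubling of age, adjusted p = 0.106), while mir-322 (0.22, adjusted p = 0.0316) and mir-351 (0.18, adjusted p = 0.0159) were.

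mir-503, the hairpin next to mir-322, was near the limit of detection, with under 10 counts in 16 of the 25 libraries. It had 0.504, 0.283, 0.636, 0.514 and 0.485 CPM at 2 months, 0.552, 0.378, 0.324, 0.282 and 0.468 CPM at 9 months, and 0.432, 0.468, 0.471, 0.331 and 0.646 CPM at 15 months. At 24 months it had 0.650, 0.809, 0.394, 1.06 and 1.24 CPM, and at 30 months 0.527, 0.460, 1.70, 0.5004 and 0.497 CPM. At 30 months 4 libraries lay among those of the young mice and 1, replicate 3, stood far above. The low-count filter asked for 0.65 counts per M of the unscaled library total in enough libraries, and on that scale mir-503 passed it through 6 of them, 4 at 24 months, 1 at 30 months and 1 at 9 months. It therefore entered the fit mainly through the age at which it was highest. Its slope of 0.28 (SE 0.12) was not called (edgeR adjusted p = 0.0840). It was called in 2 of 33 alternatives, without 24 months replicate 3 (0.33, adjusted p = 0.0399) and with unscaled library totals (0.39, adjusted p = 0.0225).

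**Figure D1:**
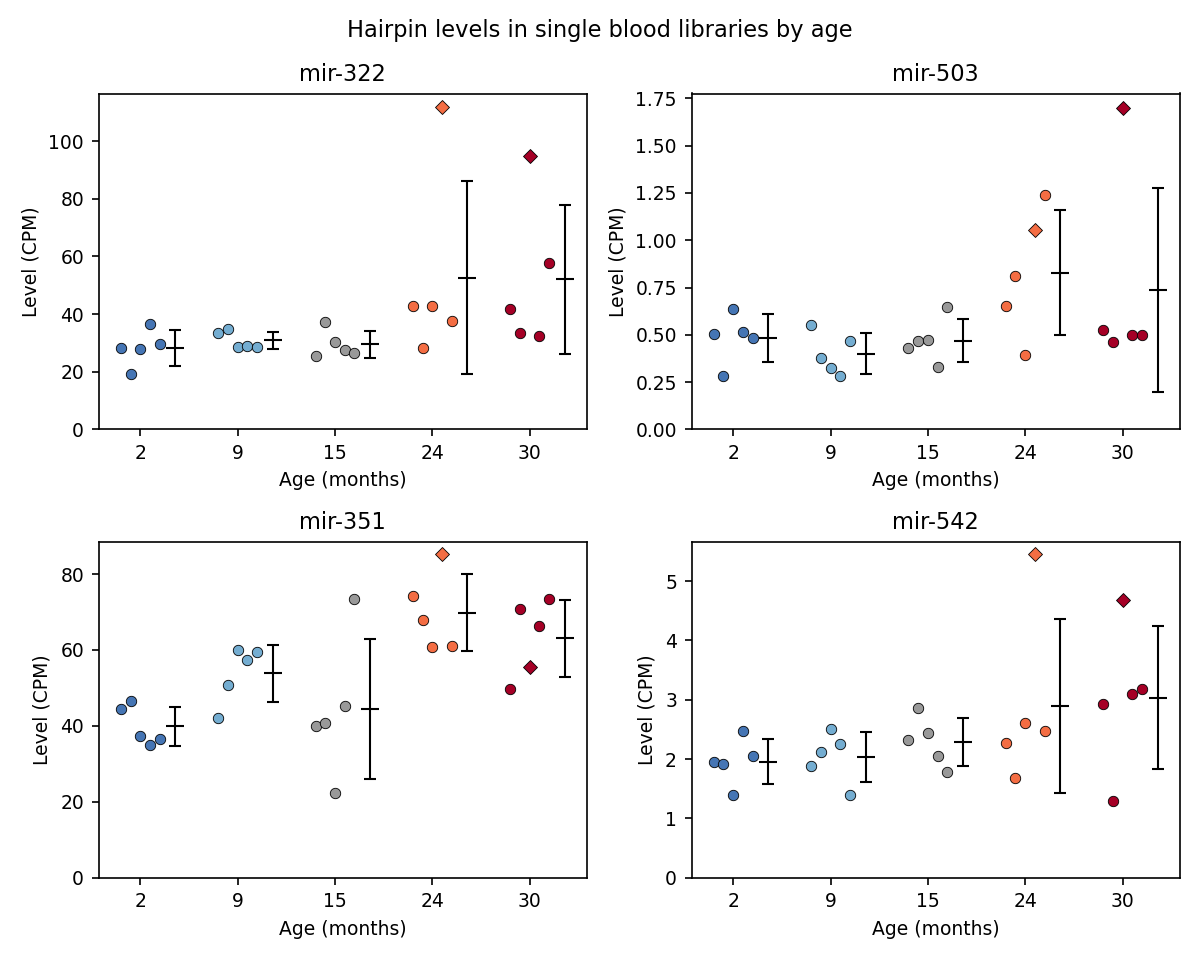
Level of each of the 4 hairpins (CPM, linear axes from 0) in every blood library at 2, 9, 15, 24 and 30 months. Coloured points are single libraries, diamonds the 2 libraries of fewest counts, and black bars the mean ± SD of 5 libraries. For mir-351 every library of 24 and 30 months lies above every 2-month library, while for mir-322 and mir-542 the highest points at 24 and 30 months are the diamonds.

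The plot of levels by age also shows that the means did not climb evenly. In order of mean, mir-322 ran 2, 15, 9, 30 and 24 months and so did mir-351. mir-542 ran 2, 9, 15, 24 and 30 months, and mir-503 ran 9, 15, 2, 30 and 24 months. For each of the 4, no neighbours in that order differed by more than the larger of their SDs. The widest step of mir-322 was that between 9 and 30 months, 21.1 CPM against a larger SD of 25.9 CPM.

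Up to 15 months no member was called. At 9 months against 2 months 0 of the 4 were called by edgeR, beside 2.07% of all precursors, and 1 passed an unadjusted p of 0.05. That was mir-351, with a log2 change of 0.43 (unadjusted p = 0.0432, edgeR adjusted p = 0.585). Its levels were above the 2-month mean in 5 of 5 libraries. At 15 months against 2 months 0 of the 4 were called, beside 1.48% of all precursors, and 0 passed an unadjusted p. The log2 changes at 15 months were 0.06 for mir-322, −0.07 for mir-503, 0.15 for mir-351 and 0.23 for mir-542.

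By 24 months mir-351 was higher than at 2 months. Its log2 change was 0.81 (SE 0.20, edgeR adjusted p = 0.0112), a 1.75-fold difference, and it was called in each of 20 alternatives tried. It was the single member called, while 7.69% of all precursors were called higher at that age. mir-322 had a change of nearly the same size, 0.89 (SE 0.30, edgeR adjusted p = 0.0522), that missed the threshold. Without 24 months replicate 4 that change was 0.43 (adjusted p = 0.243), and it was called when 2 months replicate 4 or any other 24-month library was left out. The changes of mir-503 and mir-542 were 0.65 (SE 0.34, adjusted p = 0.232) and 0.46 (SE 0.27, adjusted p = 0.304), neither called. Without 24 months replicate 4 the change of mir-542 was 0.22 (adjusted p = 0.612).

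At 30 months mir-351 was higher again, by 0.66 on the log2 scale (SE 0.20, edgeR adjusted p = 0.0322), a 1.58-fold difference over the same 2-month libraries. It was again the single member called, and 9.17% of all precursors were called higher. This call was lost when either of 2 of the 2-month libraries (replicates 3 and 4) or of the 30-month libraries (replicates 2 and 5) was left out, with adjusted p between 0.0511 and 0.0625, and with lane in the fit (0.60, adjusted p = 0.0772). mir-322 differed by 0.87 (SE 0.30, edgeR adjusted p = 0.0504), just over the threshold and not called. It was called without 2 months replicates 4 or 5 or 30 months replicates 1, 2 or 4, and with lane in the fit (0.94, adjusted p = 0.0462). Without 30 months replicate 3 the change was 0.59 (adjusted p = 0.154), and without both libraries of fewest counts it was 0.59 and called (adjusted p = 0.0225). mir-542 differed by 0.60 (SE 0.28, adjusted p = 0.161), and was called without 30 months replicate 2 (0.86, adjusted p = 0.0306). mir-503 differed by 0.48 (SE 0.37, adjusted p = 0.429). For mir-503 nearly all of that lay in 1 library: without 30 months replicate 3 the change was 0.08 (adjusted p = 0.925).

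Separation of single libraries gave the same picture. mir-351 was the 1 member of 4 with every 24-month library above every 2-month one, as were 5.03% of all precursors tested. It was also the 1 member with every 30-month library above every 2-month one, as were 5.62% of all precursors. When the 5 ages were compared without an assumed shape, mir-351 was again the 1 member called (edgeR adjusted p = 0.0454), beside 7.99% of all precursors, and it kept that call in 10 of the 25 fits that leave out 1 library. mir-322 had an adjusted p of 0.0672 in that test, mir-503 of 0.311 and mir-542 of 0.461. Without the 2-month libraries, which leaves 20 libraries and a shorter span of ages, the slopes were 0.47 for mir-322 (adjusted p = 0.0600), 0.23 for mir-351 (adjusted p = 0.234) and 0.28 for mir-542 (adjusted p = 0.250), and none was called. With lane in the fit the slopes of mir-322 and mir-351 were 0.36 (adjusted p = 0.00830) and 0.25 (adjusted p = 0.0225), both called, and that of mir-542 was 0.24 (adjusted p = 0.0520).

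The 3 hairpins that continue the group, mir-450a-1, mir-450a-2 and mir-450b, had slopes near 0 and were not called. They averaged 0.94, 0.97 and 1.12 CPM over the 25 libraries, with under 10 counts in 9, 10 and 4 of them. At such counts the lack of a call does not show that a level stayed the same. The slopes were 0.04 for mir-450a-1 (SE 0.11, edgeR adjusted p = 0.822) and 0.04 for mir-450a-2 (SE 0.12, adjusted p = 0.849). For mir-450b the slope was −0.05 (SE 0.12, adjusted p = 0.792). In each comparison 0 of 3 were called. mir-450a-1 had 0.904 ± 0.413 CPM in 30-month and 0.999 ± 0.182 CPM in 2-month libraries (SD, n = 5 each). The copies mir-450a-1 and mir-450a-2 have the same 5p mature sequence, so which of them a read came from is uncertain.

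**Figure D2:**
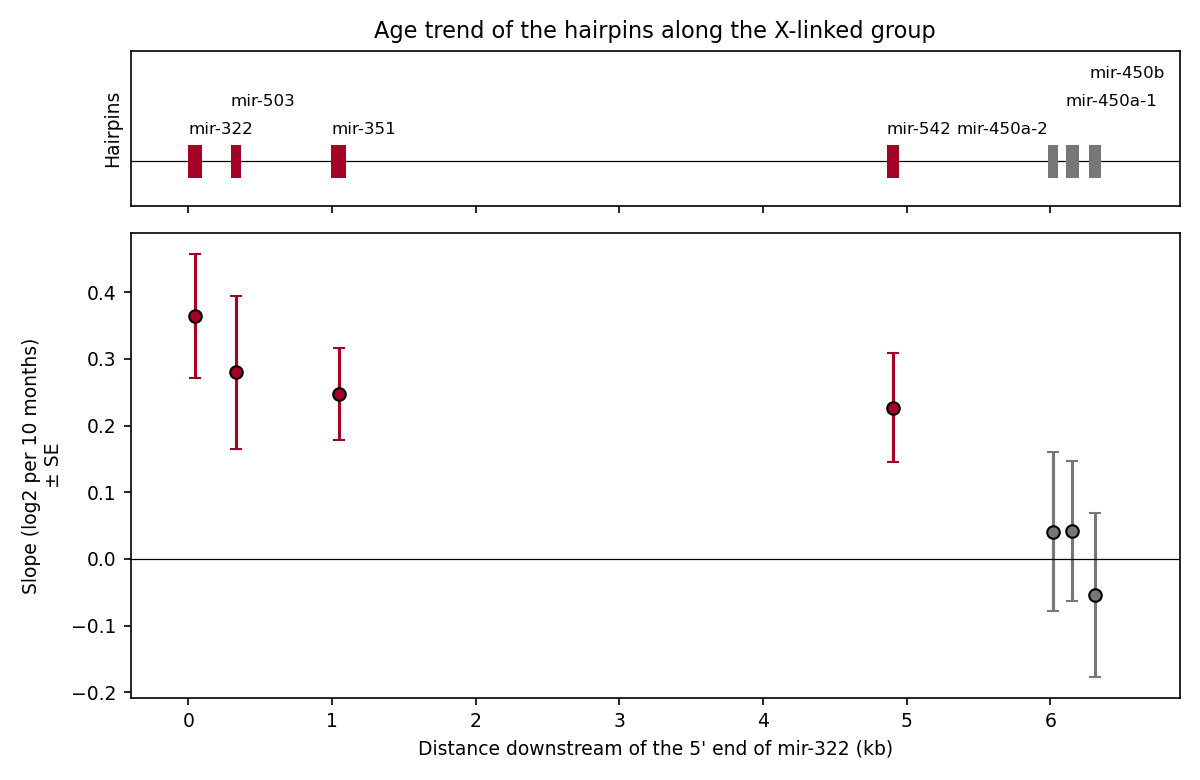
Slope of level on age (log2 units per 10 months, points with bars of 1 SE) for the 4 hairpins (red) and the 3 mir-450 hairpins (grey), against the distance downstream of the 5′ end of mir-322 (kb), with the hairpins drawn to scale above. The red slopes lie between 0.23 and 0.36 and the grey ones between −0.05 and 0.04.

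The slopes along the group fell into 2 sets, but slopes of separate precursors are not a test of their difference. Ratios within a library compare neighbours directly and need no scaling between libraries. The ratios of mir-322 and of mir-351 to the summed mir-450 counts were added after seeing these same data. Their p-values, adjusted or not, do not cover that choice and only describe these libraries. For mir-322 the log2 ratio was 4.15 ± 0.49 in 30-month and 3.12 ± 0.36 in 2-month libraries (SD, n = 5 each). The 24-month values, 2.96 to 4.53, overlapped with those of 2 months. All 30-month values, 3.52 to 4.83, lay above all 2-month values, 2.68 to 3.49. The difference of 1.04 had a two-sided exact permutation p of 0.00794, the smallest that 5 against 5 libraries allow, and 0.0317 after adjustment over 4 ratios. For mir-351 against the same sum the values were 4.54 ± 0.73 at 30 months and 3.63 ± 0.33 at 2 months, a difference of 0.91 (exact permutation p = 0.0317, adjusted p = 0.0635).

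Within the 4 hairpins the proportions did not differ detectably between the oldest and the youngest mice. The log2 ratio of mir-322 to mir-351 was −0.39 ± 0.75 at 30 months and −0.52 ± 0.49 at 2 months, a difference of 0.13 (exact permutation p = 0.770, adjusted p = 0.770). Its sign turned to −0.16 without 30 months replicate 3. mir-322 to mir-542 stood at 4.06 ± 0.49 at 30 months and 3.82 ± 0.35 at 2 months, a difference of 0.24 (exact permutation p = 0.437, adjusted p = 0.770). mir-322 to mir-503 was 6.12 ± 0.38 at 30 months and 5.79 ± 0.26 at 2 months, and was not tested because mir-503 had under 10 counts in some of these libraries. The spread between mice, up to 0.75 log2 units, is wide against these differences.

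**Figure D3:**
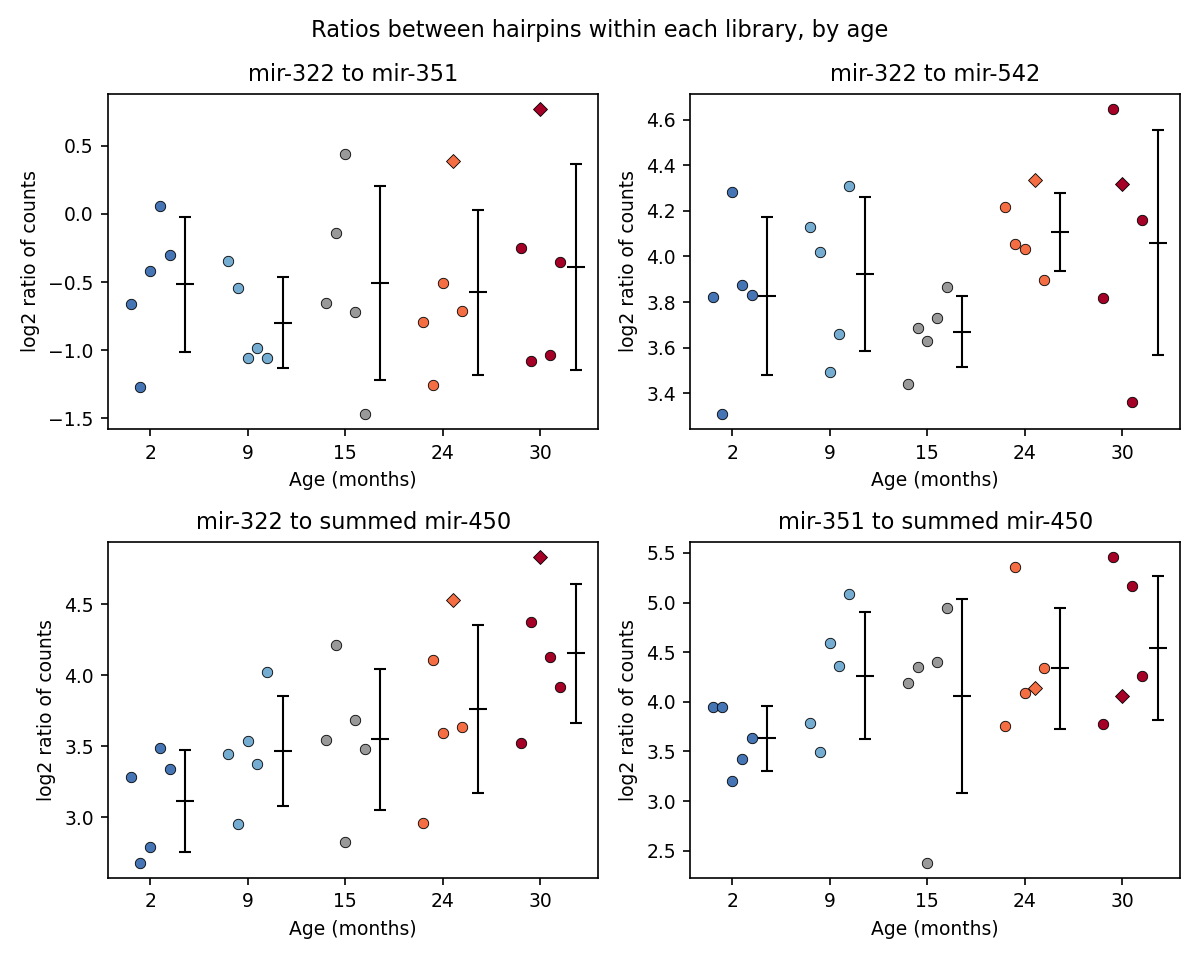
log2 ratio of the counts of 2 hairpins (or of a hairpin and the summed mir-450 hairpins) within each library at 5 ages. Points are libraries, diamonds the 2 of fewest counts, and bars the mean ± SD of 5. Ratios of mir-322 to mir-351 and to mir-542 overlap between 30 and 2 months, and those of mir-322 to the summed mir-450 hairpins do not.

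Between mice, mir-322 and mir-542 varied together. Over the 25 libraries their log2 CPM had a Pearson r of 0.80 and a Spearman rho of 0.69, with permutation p values adjusted over the 3 tested pairs of 9e-05 and 3e-04. Pearson's r was 0.77 after age means were subtracted (adjusted permutation p = 6e-05), 0.87 after lane means were subtracted, and 0.53 (adjusted permutation p = 0.0269) without the 2 libraries farthest from the median of mir-322, which were those of fewest counts. For mir-351 the r with mir-322 was 0.39 and rho 0.35 (adjusted permutation p = 0.0857 and 0.130), and r was 0.28 without the 2 farthest libraries (adjusted p = 0.195) and −0.06 after age means were subtracted (adjusted p = 0.762). After lane means were subtracted it was 0.51 (adjusted permutation p = 0.0134). Its r with mir-542 was 0.18 and rho 0.16 (adjusted permutation p = 0.378 and 0.449), with −0.12 after age means were subtracted and 0.32 after lane means. Of 6 pairs, the 3 with mir-503 got no test because of its low counts. Their r was 0.66 with mir-322, 0.43 with mir-542 and 0.27 with mir-351. Without the 2 libraries of fewest counts these were 0.28, −0.08 and 0.18.

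**Figure D4:**
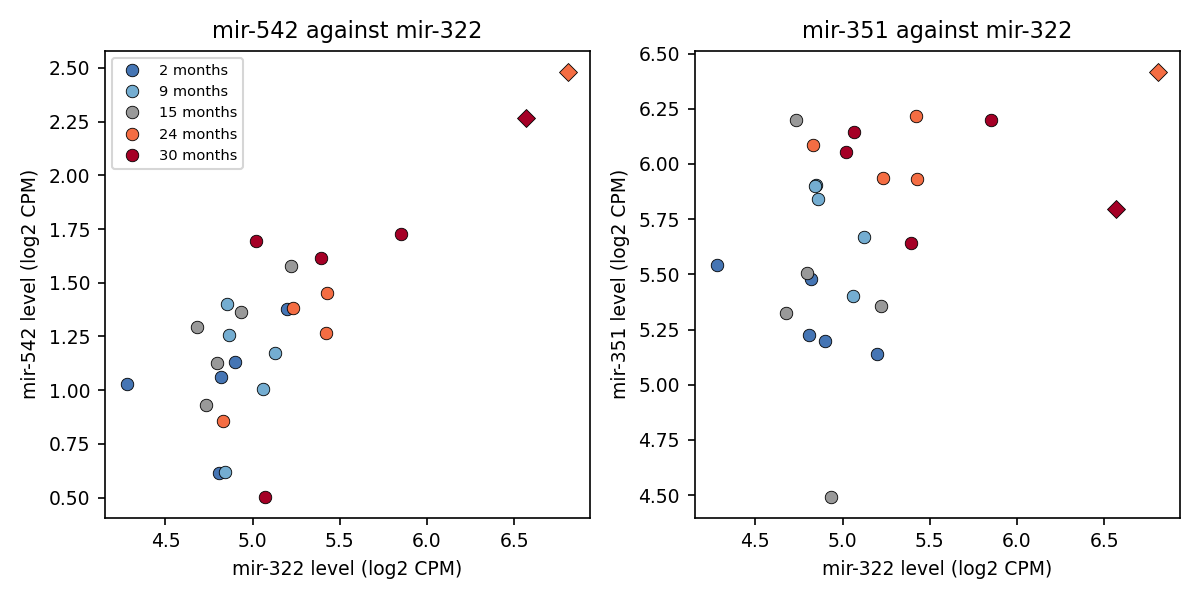
Levels of mir-542 (left) and mir-351 (right) against mir-322, all in log2 CPM, in the 25 libraries coloured by age, with the 2 libraries of fewest counts as diamonds. The points of mir-542 follow those of mir-322 (r 0.80), and those of mir-351 scatter more widely (r 0.39).

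Levels of the members moved with sequencing depth. Against the log2 library total, an analysis added after seeing the data, r was −0.77 and rho −0.39 for mir-322 (permutation p adjusted over 3 of 6.3e-04 and 0.0648), −0.62 and −0.38 for mir-542 (0.00206 and 0.0648), and −0.59 and −0.57 for mir-351 (0.00206 and 0.0105). For mir-322 and mir-542 this rested on the 2 libraries of fewest counts: without them r was −0.34 (adjusted permutation p = 0.161) and −0.14 (adjusted p = 0.509). For mir-351 it was −0.63 without them (adjusted permutation p = 0.00342). After age means were subtracted, r was −0.66 for mir-322 (adjusted permutation p = 0.00306), −0.53 for mir-542 (0.0133) and −0.39 for mir-351 (0.0658). After lane means were subtracted it was −0.87 for mir-322, −0.67 for mir-542 and −0.61 for mir-351. The totals were 5.747 to 13.07 M at 30 months and 16.21 to 22.25 M at 2 months and did not overlap, so depth and age cannot be told apart between these ages. With every library thinned to the smallest total, the slopes were 0.38 for mir-322 (edgeR adjusted p = 0.0107) and 0.25 for mir-351 (adjusted p = 0.0123), both called, and 0.23 for mir-542 (adjusted p = 0.124), not called. Thinning evens out the counting error but keeps the expected proportions within a library, so these fits cannot tell depth from age.

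**Figure D5:**
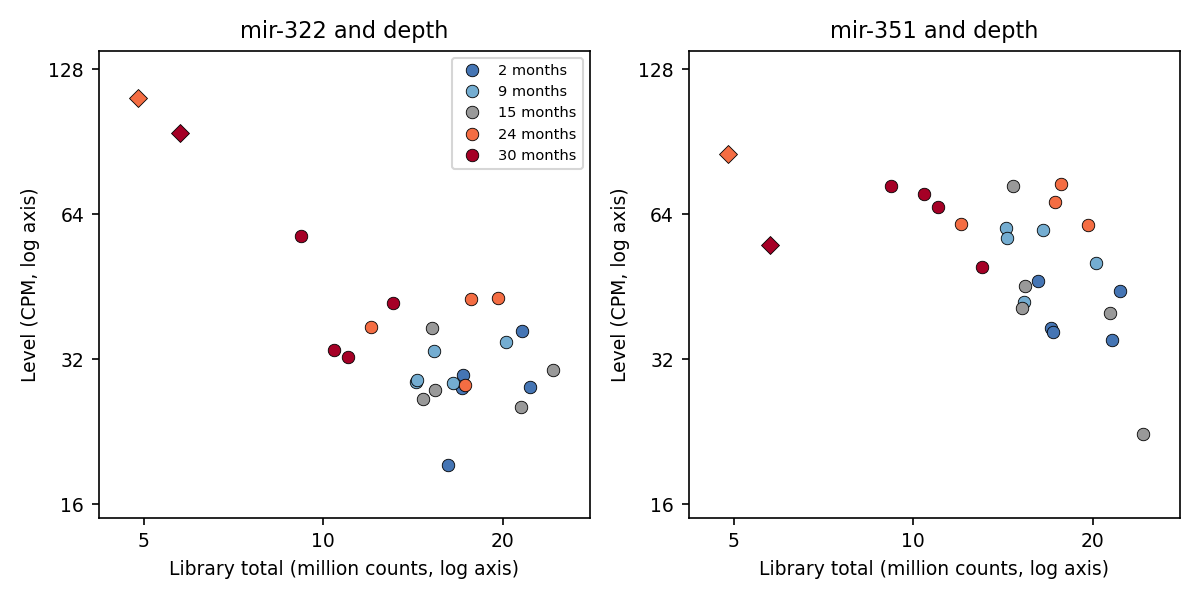
Levels of mir-322 (left) and mir-351 (right) in CPM against the library total in M counts, both on log axes, in the 25 libraries coloured by age. The diamonds, the 2 libraries of fewest counts, hold the 2 highest levels of mir-322.

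Among the families that share a seed with the group, mir-125a was the 1 hairpin called in the trend. For the miR-15/16 family 8 hairpins were listed and 7 tested, and 0 were called in any comparison with 2 months or in the trend. The list was made by name. It includes mir-497b, though no miR-497b was among the mature sequences that share the seed of miR-322-5p. The median slope was −0.122, against −0.0155 over all precursors tested. Of the 8, mir-15a, mir-15b, mir-16-1 and mir-16-2 were far more abundant than mir-322. mir-195a also lay above it, at a mean of 61.8 against 38.6 CPM over all libraries. mir-497a and mir-497b lay below mir-322, and mir-195b was at 0. mir-16-1 had 11352 ± 4263 CPM in 30-month and 16499 ± 5745 CPM in 2-month libraries (SD, n = 5 each). Its copy mir-16-2 had nearly the same levels, 11306 ± 4262 and 16490 ± 5726 CPM. mir-15b had 759 ± 148 CPM at 30 months and 669 ± 199 CPM at 2 months, and mir-195a 56.5 ± 16.2 CPM and 68.6 ± 10.5 CPM at those ages. mir-322 was thus a small part of the counts with this seed at every age.

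The miR-125 family, which shares the seed of miR-351-5p, had 3 hairpins tested. Of these 1 was called higher in the trend, beside 10.7% of all precursors. mir-125a had 63.9 ± 21.2 CPM in 30-month and 37.8 ± 10.04 CPM in 2-month libraries (SD, n = 5 each), with a slope of 0.27 (SE 0.08, edgeR adjusted p = 0.0127). At 30 against 2 months its log2 change was 0.76 (SE 0.25, adjusted p = 0.0426). The slopes of mir-125b-1 and mir-125b-2, which share 1 mature 5p sequence, were −0.03 and 0.00 and not called. mir-351 and mir-125a, 2 sources of the same seed, thus had similar levels and similar slopes.

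Other microRNAs known to restrain the cell cycle went the other way or did not pass. Of 18 listed hairpins of the let-7, miR-34 and miR-26 families 16 were tested, 7 were called lower in the trend and 0 higher, beside 9.17% and 10.7% of all precursors. The 7 include the copy pairs let-7a-1 and let-7a-2 and let-7f-1 and let-7f-2. mir-98, a let-7 family member on the X chromosome, had 28.8 ± 10.4 CPM in 30-month and 70.9 ± 12.2 CPM in 2-month libraries (SD, n = 5 each), a slope of −0.44 (edgeR adjusted p = 0.00346). let-7f-1 and let-7f-2, copies with 1 mature sequence, had slopes of −0.46 each (adjusted p = 0.00434 and 0.00457). Among 19 other tested X-linked hairpins 3 were called higher, mir-223, mir-222 and mir-501, and 2 lower, mir-98 and let-7f-2, near the shares among all precursors (10.7% and 9.17%). Their median slope was −0.0101.

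The precursors most like the members were named by the Pearson r of log2 CPM over the 25 libraries, among 150 precursors of at least 10 CPM. For mir-322 these were mir-182 (r 0.765), mir-222 (r 0.758) and mir-27b (r 0.742). mir-542 was most like mir-130b (r 0.631), mir-27b (r 0.616) and mir-15b (r 0.567), and mir-503 most like mir-130b (r 0.618), mir-532 (r 0.606) and mir-182 (r 0.597). For mir-351 they were mir-24-1 (r 0.779), mir-23a (r 0.776) and mir-24-2 (r 0.757), the mir-24 copies sharing a 3p mature sequence. These points share library, depth and scaling, so the values are a description. No precursor among the nearest 3 of mir-322 was among those of mir-351. mir-182 and mir-222 rose with age themselves, with slopes of 0.48 (edgeR adjusted p = 7.9e-04) and 0.11 (adjusted p = 0.0215), as did mir-24-1 (0.11, adjusted p = 0.0305).

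Among the tested markers of neutrophils and monocytes, 4 rose with age as mir-351 did and the most abundant, mir-21a, did not. Of 6 listed, 5 were in the table and tested, and 4 were called higher in the trend, beside 10.7% of all precursors: mir-223 (slope 0.43), mir-23a (0.32), mir-27a (0.25) and mir-24-2 (0.15). Over the 25 libraries their r with mir-351 ran from 0.684 to 0.776 and with mir-322 from 0.222 to 0.426. These values pool the ages, so a shared rise with age enters them, and no r after subtracting age means was computed. mir-223, the defining microRNA of these cells, averaged 158 CPM at 30 months and 58.2 CPM at 2 months. The abundant mir-21a had a slope of −0.03 and an r of −0.43 with mir-351, and the summed level of the list was 3357 to 7395 CPM at 30 months and 4204 to 8510 CPM at 2 months. Their part in the level of mir-351 was not tested.

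Muscle, where mir-322 and mir-503 are well studied, had 8 of 9 listed hairpins detected, with mir-206 at 0 counts in every library. Their summed level was 10.2 to 44.9 CPM at 30 months and 26.0 to 237.7 CPM at 2 months, and 0 of 3 tested were called in the trend. The platelet and endothelial list summed to 4.70 to 13.0 CPM at 30 months and 19.3 to 28.3 CPM at 2 months, with 4 of 5 tested called lower in the trend, beside 9.17% of all precursors. Lymphocyte markers summed to 1299 to 1987 CPM at 30 months and 1634 to 1980 CPM at 2 months, with 0 of 7 called in the trend. For red cells 1 of 8 was called lower in the trend and 0 higher, beside 9.17% and 10.7% of all precursors. The liver list summed to 5206 ± 778 CPM in 30-month and 3760 ± 478 CPM in 2-month libraries (SD, n = 5 each), with 0 of 3 tested called in the trend. Nearly all of that sum was mir-192, which averaged 4250 CPM over all libraries, while mir-122 averaged 0.327 CPM. The smooth muscle list had 0 of 2 called in the trend. The epithelial list had 1 of 5 higher and 2 lower, beside 10.7% and 9.17% of all precursors.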

How the data were processed

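MicroRNA precursors were counted in 25 blood libraries, 5 at each of 5 ages. The authors deposited raw counts per hairpin, made from TruSeq small RNA libraries per the labels' protocols. The submitters' processing notes list bcl2fastq 1.8.4, Trimmomatic 0.36 and also SAMtools 1.3.1-9, with no roles. Not given in the sources used here are the aligner, counter, annotation and genome build. Of 1193 precursors 328 were at 0 throughout. Counts were tested with edgeR 4.0.16 in R 4.3.3 (TMM, default expression filter by age, robust quasi-likelihood F test, all 25 libraries in 1 fit) and adjusted over all precursors that passed the filter, with a threshold of 0.05. DESeq2 1.42.0 and limma 3.58.1 were alternatives. Correlations used log2 CPM with a prior count of 2 and 100000 permutations (SciPy 1.17.1), and ratios had 0.5 added to both counts. Scripts were tested on simulated data. Floors cover counting error only, without molecular identifiers. No 2 libraries of an age matched within sampling noise (smallest chi-square per degree of freedom 124.9 over 50 pairs). Replicate numbers follow sample order. Beyond the numbered animals nothing describes how replicates were taken, so p-values measure the spread between these samples. The members and lists were chosen with earlier results of these data known. Named precursors are the members, their genomic neighbours, the seed families, up to 3 called members of the other lists, the 3 precursors most like each member, and cell type markers. Further list members were named after their values were seen.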

Additional observations from a re-analysis of the deposited data

Results flagged for a closer look

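Over the 4 hairpins and the 3 mir-450 hairpins at 5 ages, 35 groups of 5 libraries were examined for a single library whose gap to the nearest one exceeds 0.71 of the group's range. Chance flags about 1 in 20 groups, and 6 were found. mir-322 had 111.84 CPM in 24 months replicate 4, where the nearest library had 42.9 CPM. mir-542 had 5.4515 CPM in the same library, with the nearest at 2.60 CPM. mir-503 had 1.7008 CPM in 30 months replicate 3, with the nearest at 0.527 CPM. Those are the 2 libraries of fewest counts. mir-450a-1 had 1.3271 CPM and mir-450a-2 had 1.4127 CPM in 15 months replicate 3, with the nearest at 0.662 and 0.810 CPM, and these copies share a mature sequence. mir-450b had 0.18415 CPM in 30 months replicate 2, below the nearest at 0.978 CPM.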

How the results depend on the processing

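The slopes of mir-322 and mir-351 were called in 34 of 35 alternatives each, those of mir-542 in 21 of 34 and of mir-503 in 2 of 33. Of the members called in the trend (3), 0 were left without the 2-month libraries. For any age, where 1 was called, there were 2 with library totals, DESeq2 or a filter of 10 CPM, and 0 with no filter, with lane in the fit or without the 2 libraries of fewest counts; leaving out 1 library gave 0 to 2. At 24 against 2 months (1 called) there were 2 with library totals, upper quartile factors, DESeq2 or the 10 CPM filter, and 1 to 2 with 1 library left out. At 30 against 2 months (1 called) there were 2 under those 4 settings and without the libraries of fewest counts, 0 with no filter, and 0 to 2 with 1 library left out. Which members made up these counts varied: at 30 months without replicate 2 they were mir-322 and mir-542, and with lane in the fit mir-322 alone. The change of mir-322 was called in 9 of 20 alternatives at 24 months and 11 of 20 at 30 months.

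Library totals moved the median of all precursors to 0.357 at 24 and 0.203 at 30 against 2 months (−0.00372 and −0.0379 with TMM factors) and the split of trend calls to 80 higher and 9 lower, against 36 and 31; upper quartile factors gave 38 and 18. At 24 months the split was 69 and 3 with totals, 21 and 3 with upper quartile factors and 26 and 15 with TMM. At 30 months it was 51 and 6, 27 and 14, and 31 and 17. Over the alternatives the calls among all precursors ran from 14 to 44 for any age (27), 9 to 89 for the trend (67), 3 to 8 at 9 months (7), 2 to 5 at 15 months (5), 23 to 72 at 24 months (41) and 15 to 58 at 30 months (48).

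Small changes turned sign. mir-503 at 15 against 2 months was 0.0602 with library totals, 0.0247 with no filter and −0.146 to 0.0732 with 1 library left out. mir-542 was −0.00798 at 9 months and −0.0400 at 15 months when thinned to the smallest library, and −0.0313 to 0.175 at 9 months with 1 library left out. mir-351 at 15 months was −0.0667 to 0.372 with 1 left out. The ratio of mir-322 to mir-351 was −0.162 to 0.301 with 1 left out and −0.162 without the libraries of fewest counts. The ratio of mir-322 to the summed mir-450 was 0.869 to 1.20 with 1 left out, where the adjusted exact permutation p of 4 against 5 libraries reached 0.0635 for most, and 0.869 without the libraries of fewest counts; that of mir-351 was 0.681 to 1.10 with 1 left out.

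The correlation of mir-322 and mir-351 was −0.0590 after age means, 0.51 after lane means and 0.63 with library totals. That of mir-351 and mir-542 was −0.12 after age means, −0.0351 without the libraries of fewest counts and 0.49 with library totals. mir-503 and mir-351 had −0.0795 after age means, and mir-503 and mir-542 −0.0761 without the libraries of fewest counts. With the library total, r was −0.34 for mir-322 and −0.14 for mir-542 without the libraries of fewest counts, and −0.39 for mir-351 after age means. The causes were not tested. mir-503, at 4 to 17 counts, is limited by depth. No paired analysis was possible because replicate numbers follow sample order and each library is another animal.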
